A study of Mus musculus with 6 samples.

Results

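The genes described here encode the respiratory chain, that is complexes I, III and IV and the ATP synthase (complex V), and they were taken by symbol from the gene table of an RNA-seq study of mouse fibroblasts. A gene is a member if its symbol begins with Uqcr, Atp5, mt-Nd, mt-Co, mt-Atp or mt-Cytb or with Cox, a number from 4 to 8 and a letter, or if it is Nduf with a, b, c, s or v and a number and nothing more. Among 25140 genes listed, 100 are members, 87 in the nuclear genome and 13 in the mitochondrial genome. The nuclear members comprise 79 protein-coding genes and 8 processed pseudogenes. Enough reads for the test were present for 85 members, 75 nuclear and 10 mitochondrial.

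Complex I (NADH:ubiquinone oxidoreductase) and complex III (the cytochrome bc1 complex) pass electrons from NADH by way of ubiquinone to cytochrome c, complex IV (cytochrome c oxidase) passes them to oxygen, and all of them pump protons across the inner mitochondrial membrane. Complex V uses the proton gradient to make ATP. Each of these complexes holds at least 1 core subunit encoded by mitochondrial DNA, which is transcribed as long precursors that are cut into single mRNAs, and many subunits encoded in the nucleus and imported. In fibroblasts, transforming growth factor β (TGFβ) drives the change to myofibroblasts, contractile cells that secrete matrix.

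The study asked what part mitochondrial calcium uptake plays when fibroblasts turn into myofibroblasts. Its RNA-seq, used here, compared gene expression with and without TGFβ, beside an assay of open chromatin on the same samples. Primary cardiac fibroblasts of the adult C57BL/6 mouse heart at passage 1, grown in 25 mM glucose DMEM with 10% FBS, were kept in 1% FBS for 16 h and then given TGFβ at 10 ng/ml for 24 h (3 libraries) or vehicle (3 libraries). The sample labels and the study's methods name these cells cardiac fibroblasts, whereas the text of its results calls them embryonic fibroblasts. For all its experiments the study's methods give 1% FBS for 24 h before TGFβ, not 16 h, and throughout the treatment. All cells shared strain, glucose and low serum, and no cell carried a genetic change. The methods speak of biological replicates without saying whether cultures came from separate animals.

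The libraries held 27851677 to 31072338 counts. TGFβ raised its known targets *Acta2* (log2 fold change 1.03) and *Postn* (1.55). Of 7 fibroblast markers 5 fell with TGFβ (*Pdgfra*, *Dcn*, *Lum*, *Tcf21*, *Thy1*). The other 2 were the abundant *Col1a1* (0.23; adjusted p = 0.0550) and *Col1a2* (0.13; adjusted p = 0.196), of which DESeq2 and limma-voom called *Col1a1* higher. Markers of other cells were present. The 6 endothelial markers summed to 419 to 645 CPM (reads in each 1000000 counted, with TMM scaling) under vehicle and 383 to 524 CPM under TGFβ, and none passed the test. The 5 leukocyte markers in the table summed to 238 to 339.9 and 207 to 308 CPM, also with none past the threshold. Of 7 cardiomyocyte markers 6 averaged under 1 CPM, and the list summed to 38.5 to 59.1 and 27.2 to 40.2 CPM, almost all of it *Tnnt2*. The 5 smooth muscle and pericyte markers summed to 60.0 to 86.3 and 75.3 to 128 CPM, and *Cspg4* rose. The 4 mesothelial markers summed to 23.0 to 62.2 and 14.8 to 34.2 CPM, with none past the threshold. Of the endothelial and leukocyte markers 0 had an unadjusted p under 0.05 in edgeR and 0 passed in DESeq2 or limma-voom, while DESeq2 called *Tnnt2* lower and 1 mesothelial marker had an unadjusted p under 0.05. The part of such cells in the results below was not tested, and in bulk RNA fewer cells of a type and less RNA per cell cannot be told apart.

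With TGFβ, more nuclear genes of the chain rose than fell, by small amounts, and no mitochondrial gene passed the test. Of the 75 nuclear members tested 32 rose and 4 fell at an adjusted p under 0.05 (edgeR's quasi-likelihood test over all 14334 genes tested, with Benjamini-Hochberg adjustment), and 39 did not pass. The 3 libraries of a group are taken here in the order of the deposited columns. Without the second vehicle library 17 rose and 1 fell, without the third vehicle library 20 and 2, without the first TGFβ library 22 and 2, without the second 20 and 2 and without the third 21 and 4. DESeq2 called 20 higher and 2 lower. In all 14 alternative settings 16 of those that rose and 1 of those that fell kept the call. Here and below, the 14 settings leave out the stricter threshold of 0.01, at which 13 rose and 1 fell. None of the 10 mitochondrial members tested passed, and 1 had an unadjusted p under 0.05. limma-voom called none and DESeq2 called 1, *mt-Co1*, which also passed with upper quartile scaling in edgeR. Together 36 of 85 tested members changed, or 42.4%, which lies near the 40.7% of all genes tested that changed. The direction was uneven, with 37.6% of tested members higher against 20.5% of all genes tested and 4.71% lower against 20.1%. No set of genes matched to the members in read level was compared. The 3 TGFβ libraries lay wholly above the 3 vehicle libraries in 43 tested members and wholly below in 6, where 53.3% of all genes tested did not overlap in 1 direction or the other.

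These shifts were small. The median log2 fold change was 0.12 over the 75 nuclear members tested and -0.0364 over the 10 mitochondrial ones, beside -0.00129 over all genes tested. With the closest nuclear copies added to the mitochondrial genes, as described below, their median was -0.0624 over 12 genes. A log2 change within 0.25 in size was measured for 59 nuclear members, and 4 lay beyond 0.5. Irrespective of direction the median size of change was 0.136 over the tested members and 0.208 over all genes tested. All genes tested were not matched to the members in read level. The median level under vehicle was 47.8 CPM for the nuclear and 447 CPM for the mitochondrial members tested. The coefficient of variation between libraries of a group was lower for nuclear members, with a median of 3.79% with vehicle and 2.78% with TGFβ, than for mitochondrial ones, with 7.41% and 6.58%.

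Summed over all nuclear members, the level was 5503, 5300.0 and 5178 CPM under vehicle and 5818, 5945 and 5894 CPM under TGFβ. The groups did not overlap, and their means of 5327 ± 164 against 5886 ± 63.8 CPM (SD, n = 3) stood in a ratio of 1.10. One gene, *Atp5b*, supplied 176 CPM of the difference of 559 CPM, or 31.4%, and *Uqcrq* was next with 33.9 CPM. Summed over the mitochondrial members, the level was 6538, 6155 and 6812 CPM under vehicle and 6133, 5865 and 6362 CPM under TGFβ. Here the groups overlapped, with means of 6502 ± 330.0 against 6120.2 ± 249 CPM (SD, n = 3) and a ratio of 0.941. The mitochondrial sum leaves out the nuclear copies described below, which had far more reads than *mt-Co2*, *mt-Co3* and *mt-Atp6* did. By complex, the nuclear sums stood in ratios of 1.07 (complex I), 1.15 (complex III), 1.07 (complex IV) and 1.14 (complex V), TGFβ over vehicle, and in each complex all TGFβ sums lay above all vehicle sums. No test was run on sums.

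**Figure D1:**
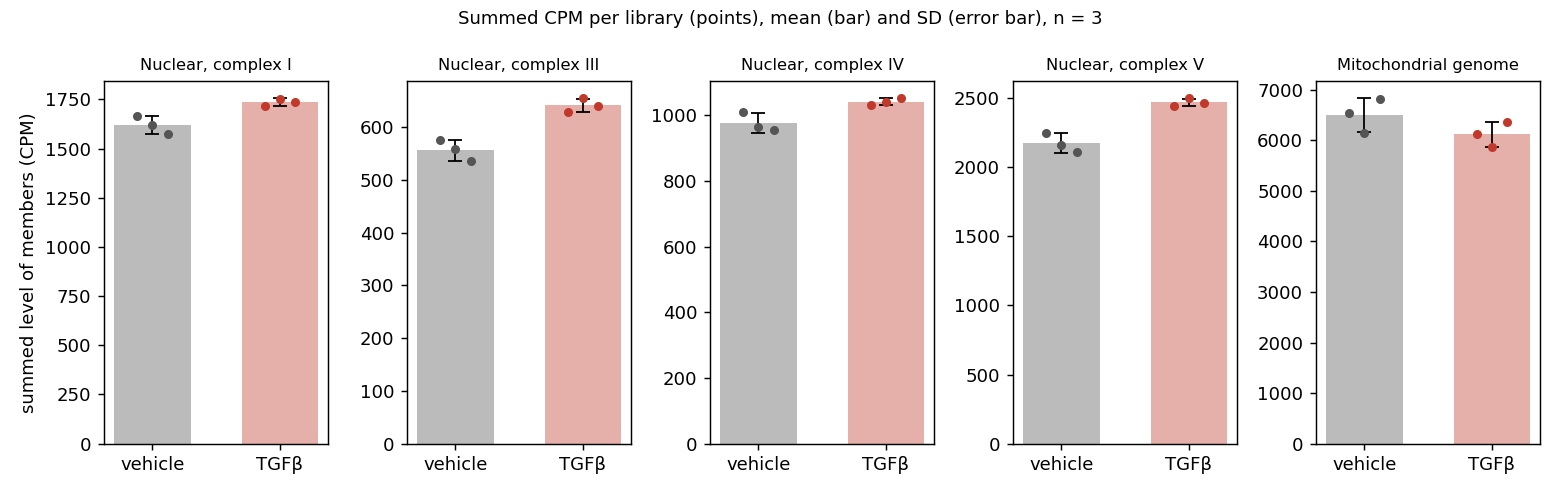
Summed level in CPM of the nuclear members of each complex and of the mitochondrial members, with vehicle (grey) and TGFβ (red). Points are libraries, bars are means and error bars SD (n = 3). In the 4 nuclear panels every TGFβ point lies above every vehicle point, and the mitochondrial points overlap, at 5865 to 6362 against 6155 to 6812 CPM. Reads counted on nuclear copies of mitochondrial genes are left out.

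**Figure D2:**
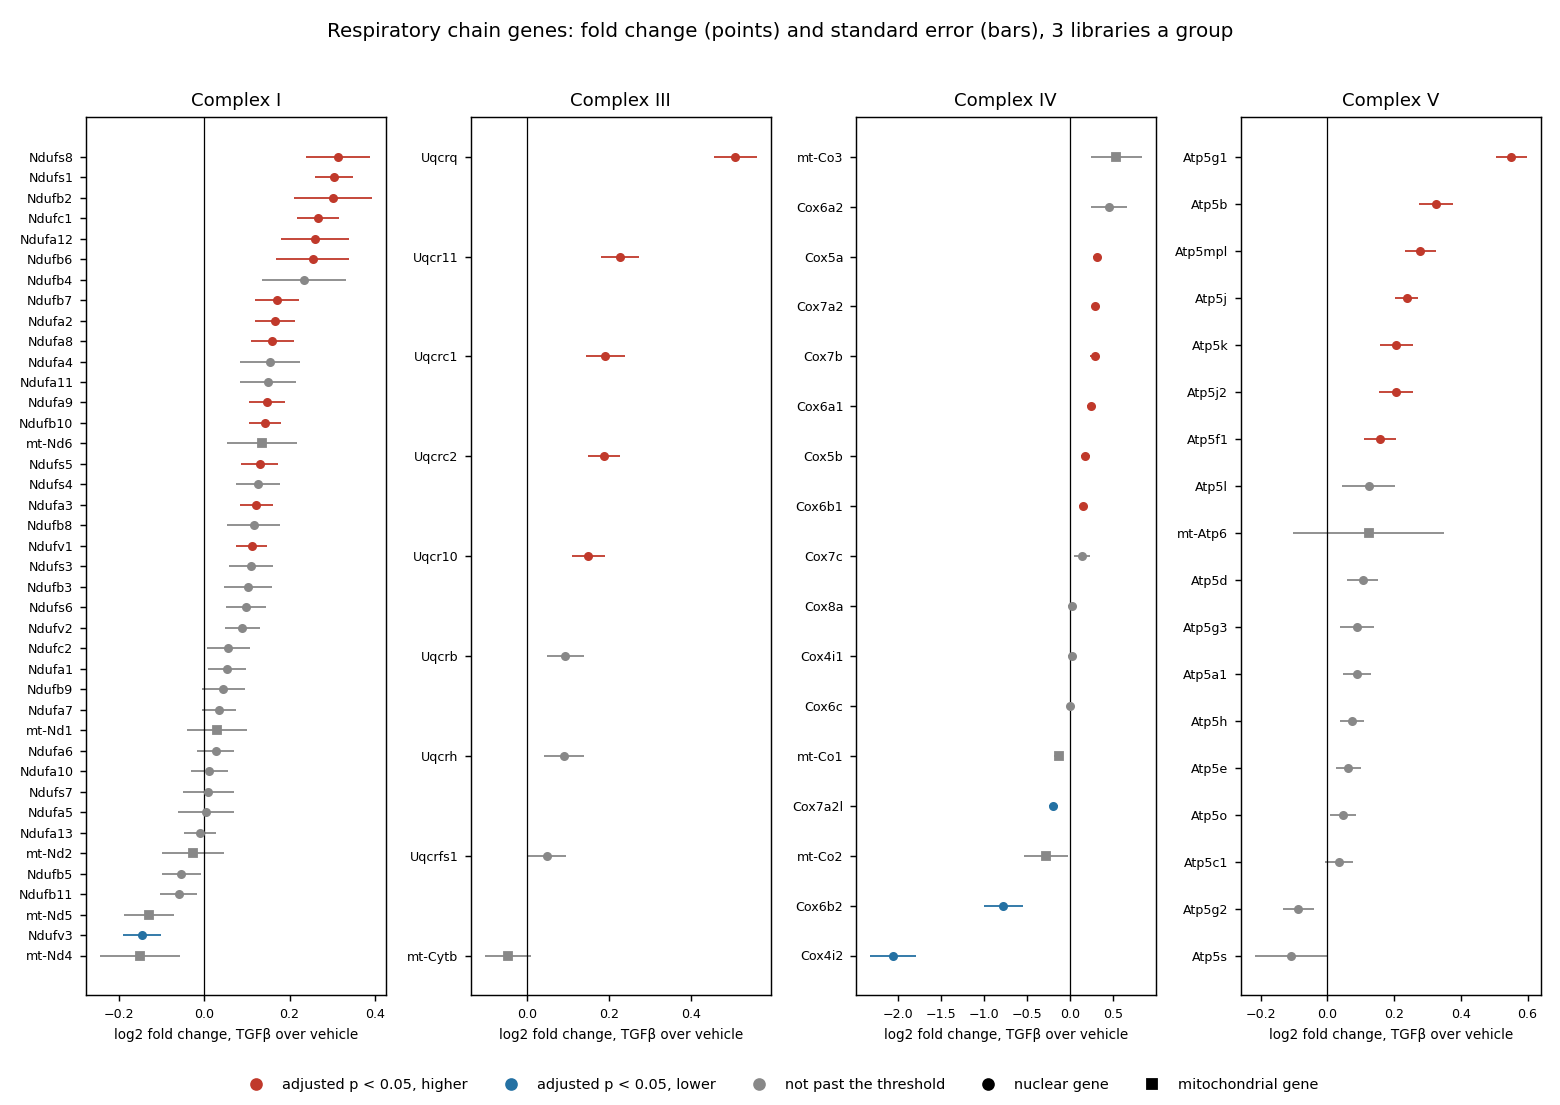
Difference between TGFβ and vehicle, as a log2 fold change, for 84 of the 85 members tested, by complex, with its standard error as a bar. Circles are nuclear and squares mitochondrial genes, and colour gives the call at an adjusted p under 0.05 (red higher, blue lower, grey not past it). Each panel has its own horizontal axis. Most nuclear genes lie just right of 0, and *Cox4i2* stands apart at -2.07.

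In complex I, 14 of 36 nuclear members rose and 1 fell, with a median log2 fold change of 0.113 and a range from -0.15 to 0.31. These are 38.9% higher and 2.78% lower, beside 20.5% and 20.1% of all genes tested. In either direction 41.7% changed, near the 40.7% of all genes tested. *Ndufs8*, an iron-sulphur subunit of the core, measured 37.6, 33.2 and 32.2 CPM under vehicle and 39.6, 43.0 and 45.5 CPM under TGFβ. All TGFβ libraries lay above all vehicle libraries, and the log2 fold change was 0.31 ± 0.08 (SE; adjusted p = 0.0124). *Ndufs1*, the largest core subunit and also an iron-sulphur protein, measured 69.6, 74.0 and 68.2 CPM under vehicle and 88.4, 88.1 and 84.9 CPM under TGFβ, a log2 fold change of 0.30 ± 0.04 (SE; adjusted p = 0.00123). Its groups were well apart. *Ndufb2*, an accessory subunit of the membrane arm, was low, with 8.23, 7.55 and 7.11 CPM under vehicle and 8.85, 10.1 and 9.26 CPM under TGFβ, and the log2 fold change of 0.30 ± 0.09 (SE; adjusted p = 0.0312) rested on 212 to 283 reads per library. The call of *Ndufb2* was lost (adjusted p in parentheses) without the second vehicle library (0.0871), the third vehicle library (0.0896), the second TGFβ library (0.109) or the third TGFβ library (0.0603) and with DESeq2 (0.0767).

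The member of complex I that fell, *Ndufv3*, encodes an accessory subunit of the NADH-binding module. It measured 46.6, 50.3 and 49.1 CPM under vehicle and 43.2, 43.5 and 45.2 CPM under TGFβ, a log2 fold change of -0.15 ± 0.05 (SE; adjusted p = 0.0334). Its call was lost (adjusted p in parentheses) without the second vehicle library (0.123), the third vehicle library (0.0854), the first TGFβ library (0.104) or the second TGFβ library (0.101) and with DESeq2 (0.1) and with no filter (0.0764) and with a length and GC trend removed (0.118). The groups did not overlap, but the difference was 9.66% of the vehicle level. Of the 6 nuclear core subunits described here 3 rose (*Ndufs1*, *Ndufs8* and *Ndufv1*) and none fell, with a median of 0.110. Of the 29 accessory subunits by symbol, among them *Ndufa4*, 11 rose and 1 fell, with a median of 0.122. Both counts stand beside 20.5% of all genes tested that rose and 20.1% that fell.

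*Ndufv1*, which binds NADH and flavin, measured 63.6, 64.4 and 63.7 CPM under vehicle and 70.1, 69.8 and 67.1 CPM under TGFβ, a log2 fold change of 0.11 ± 0.04 (SE; adjusted p = 0.0422). Its call was lost (adjusted p in parentheses) without the first vehicle library (0.105), the second vehicle library (0.0999), the third vehicle library (0.0974), the first TGFβ library (0.112) or the second TGFβ library (0.122) and with upper quartile scaling (0.0769) and with DESeq2 (0.183) and with no filter (0.104). Its module partner *Ndufv2* measured 61.1, 58.0 and 57.0 CPM under vehicle and 62.3, 63.4 and 61.7 CPM under TGFβ, with groups that did not overlap and a log2 fold change of 0.09 ± 0.04 (SE; adjusted p = 0.121). *Ndufs3* measured 29.0, 29.1 and 28.6 CPM under vehicle and 29.8, 30.8 and 33.0 CPM under TGFβ, a log2 fold change of 0.11 ± 0.05 (SE; adjusted p = 0.126) that passed in 1 of 14 settings, and 28.2% of its 75-base windows also occur in other transcripts. *Ndufs7*, which holds the iron-sulphur centre next to the quinone site, measured 25.0, 26.2 and 23.9 CPM under vehicle and 24.7, 26.6 and 24.2 CPM under TGFβ. Its groups overlapped, and the sign of its log2 fold change of 0.01 ± 0.06 (SE) turned under other settings. The core subunits described here thus ranged from 0.01 to 0.31 on the log2 scale.

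Of the other accessory subunits that rose, *Ndufc1* had the smallest adjusted p, 0.00378 at a log2 fold change of 0.27. The remaining ones were *Ndufa12* (0.26), *Ndufb6* (0.25), *Ndufb7* (0.17), *Ndufa2* (0.17), *Ndufa8* (0.16), *Ndufa9* (0.15), *Ndufb10* (0.14), *Ndufs5* (0.13) and *Ndufa3* (0.12). *Ndufc1* kept its call in all 14 settings and none of the others did, with *Ndufs5* kept in 3, and DESeq2 called *Ndufa12* and *Ndufb6* among them. For *Ndufb6*, 39.0% of the exonic length overlaps the antisense gene *Smim27*, which had 381 reads in all against 6965 for *Ndufb6*. The 31.3% of its windows that are shared are all shared with *Smim27*. *Ndufa4*, now placed in complex IV although its symbol is of complex I, measured 90.3, 83.9 and 75.6 CPM under vehicle and 96.7, 93.9 and 87.3 CPM under TGFβ, with overlapping groups and a log2 fold change of 0.15 ± 0.07 (SE; adjusted p = 0.118).

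In complex III, 5 of 8 nuclear members tested rose and none fell (0 lower at an unadjusted p under 0.05 and with DESeq2 or limma-voom), with a median log2 fold change of 0.169. That is 62.5% higher, where 20.5% of all genes tested were higher and 20.1% lower. The leading gene was *Uqcrq* (ENSMUSG00000044894; chromosome 11, 53427922 to 53430831, minus strand, GRCm38), a small subunit next to cytochrome b. *Uqcrq* measured 81.8, 82.4 and 76.1 CPM under vehicle and 107, 118 and 117 CPM under TGFβ, and the lowest TGFβ library stood well above the highest vehicle library. The means were 80.1 ± 3.47 CPM under vehicle and 114 ± 5.80 CPM under TGFβ (SD, n = 3), a log2 fold change of 0.51 ± 0.05 (SE; adjusted p = 2.60e-04) or 1.42-fold. The call held in all 14 alternative settings (adjusted p 8.53e-12 to 0.00183).

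*Uqcr11*, another small subunit, measured 39.6, 37.4 and 37.0 CPM under vehicle and 45.7, 44.8 and 43.1 CPM under TGFβ, a log2 fold change of 0.23 ± 0.05 (SE; adjusted p = 0.00589). The large core proteins on the matrix side moved alike. *Uqcrc1* measured 123, 119.5 and 111 CPM under vehicle and 133, 135 and 136 CPM under TGFβ, a log2 fold change of 0.19 ± 0.05 (SE; adjusted p = 0.0137), and *Uqcrc2* 104, 102 and 99.8 CPM under vehicle and 114, 119.8 and 115 CPM under TGFβ, a log2 fold change of 0.19 ± 0.04 (SE; adjusted p = 0.00714). Of the *Uqcrc2* windows 23.8% are shared, all with *Pdzd9*, which overlaps it on the opposite strand and had 26 reads in all against 19051. *Uqcr10* rose by 0.15 on the log2 scale, a call kept in 9 of 14 settings and lost with DESeq2. The Rieske iron-sulphur protein *Uqcrfs1* measured 68.0, 62.7 and 62.5 CPM under vehicle and 66.2, 68.1 and 65.6 CPM under TGFβ, with overlapping groups and a log2 fold change of 0.05 ± 0.05 (SE; adjusted p = 0.426). *Uqcrb* and *Uqcrh* stood at 0.09 and 0.09 and did not pass. Cytochrome c1, *Cyc1*, whose symbol lies outside the naming rule, rose by 0.30 (SE 0.04; adjusted p = 5.31e-04).

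Cytochrome c, *Cycs*, the mobile carrier between complexes III and IV, measured 10.2, 9.61 and 9.62 CPM under vehicle and 13.7, 14.3 and 16.5 CPM under TGFβ. Every TGFβ library was above every vehicle library, and the log2 fold change of 0.60 ± 0.09 (SE; adjusted p = 0.00121), or 1.51-fold, exceeded that of each nuclear member that rose. *Cycs* is no member by symbol and comes from a list of 5 subunits and carriers named otherwise, of which 4 rose (*Cyc1*, *Ndufab1*, *Usmg5*, *Cycs*) and *Atpif1*, the inhibitor of the ATP synthase, stood at 0.14 (adjusted p = 0.0684). Of all genes tested 20.5% rose.

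By symbol, complex IV held 3 of the 4 members that fell, with *Cox7a2l* counted in it by its name. Of 14 nuclear members tested 6 rose and 3 fell, with a median log2 fold change of 0.139 and a range from -2.07 to 0.45. These are 42.9% higher and 21.4% lower, beside 20.5% and 20.1% of all genes tested. The share that fell thus lay near that of all genes tested. The members that rose encode ubiquitous subunits. *Cox5a* measured 80.4, 78.4 and 73.1 CPM under vehicle and 93.3, 95.4 and 97.8 CPM under TGFβ, a log2 fold change of 0.30 ± 0.05 (SE; adjusted p = 0.00160). *Cox7a2* measured 51.9, 49.4 and 49.9 CPM under vehicle and 61.1, 61.1 and 62.4 CPM under TGFβ, a log2 fold change of 0.29 ± 0.04 (SE; adjusted p = 8.30e-04), and *Cox7b* 55.3, 52.7 and 48.2 CPM under vehicle and 64.7, 62.3 and 62.9 CPM under TGFβ, a log2 fold change of 0.28 ± 0.05 (SE; adjusted p = 0.00494). None of these overlapped between groups. *Cox6a1* (0.24), *Cox5b* (0.17) and *Cox6b1* (0.14) rose by less. The call of *Cox5b* was kept in 7 of 14 settings and lost with DESeq2. The call of *Cox6b1* was lost (adjusted p in parentheses) without the second vehicle library (0.104), the third vehicle library (0.0843), the first TGFβ library (0.0900) or the third TGFβ library (0.0759) and with upper quartile scaling (0.0533) and with DESeq2 (0.0634). *Cox6c* and *Cox7c* stood at 0.000926 and 0.14 and were not called.

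The largest change of any member was in *Cox4i2* (ENSMUSG00000009876; chromosome 2, 152754173 to 152765037, plus strand, GRCm38), the oxygen-regulated isoform of subunit 4 known from lung. Its counts were 125, 82 and 92 under vehicle and 25, 13 and 27 under TGFβ, or 3.93, 2.76 and 3.08 CPM under vehicle and 0.914, 0.466 and 0.947 CPM under TGFβ. The groups were far apart, with 0.239 times the vehicle level under TGFβ and a log2 fold change of -2.07 ± 0.27 (SE; adjusted p = 7.46e-04), called in all 14 alternative settings. The common isoform *Cox4i1* measured 258, 245 and 247 CPM under vehicle and 251, 254 and 252 CPM under TGFβ, a log2 fold change of 0.01 ± 0.04 (SE; adjusted p = 0.809) whose sign turned under upper quartile scaling. On the per-length scale (counts per kilobase of annotated exon, scaled to the same total in every library) *Cox4i2* made up 2.49% ± 0.376 with vehicle and 0.602% ± 0.210 with TGFβ (SD, n = 3) of both isoforms together. *Cox4i2* was therefore the minor isoform in each library. By reads the vehicle means were 3.26 CPM for *Cox4i2* and 250 CPM for *Cox4i1*. The exon lengths used, 788 bases for *Cox4i2* and 1550 for *Cox4i1*, take in all annotated exons. Per-length levels and shares, here and below, therefore depend on the annotation of each gene. Pericyte and endothelial markers stood beside it as follows. Of the 5 smooth muscle and pericyte markers, *Cspg4* rose, with 18.9, 16.6 and 22.9 CPM under vehicle and 56.6, 40.0 and 63.3 CPM under TGFβ. The other 4 overlapped between groups and did not pass, with log2 fold changes of 0.15 for *Rgs5*, 0.20 for *Kcnj8*, -0.26 for *Myh11* and 0.53 for *Des*. The 6 endothelial markers also overlapped without passing, and their log2 fold changes ran from -0.38 for *Cdh5* over -0.36 (*Kdr*), -0.34 (*Pecam1*), -0.28 (*Tie1*) and 0.01 (*Emcn*) to 0.25 for *Tek*. The part of these cells in the fall of *Cox4i2* was not tested.

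**Figure D3:**
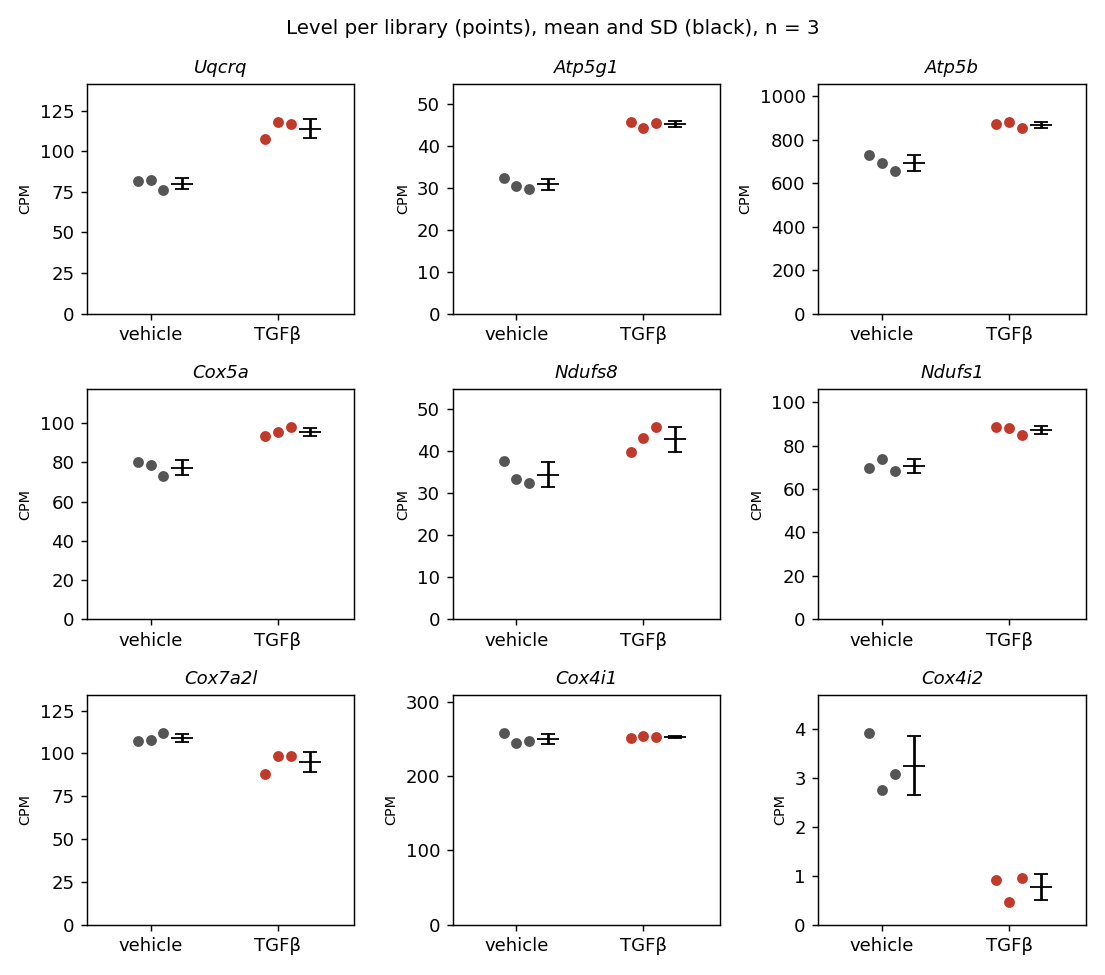
Level in CPM per library of 9 nuclear members with vehicle (grey) and TGFβ (red), each axis starting at 0, with mean and SD in black (n = 3). *Uqcrq*, *Atp5g1*, *Atp5b*, *Cox5a*, *Ndufs8* and *Ndufs1* lie higher with TGFβ, *Cox7a2l* and *Cox4i2* lower, and *Cox4i1* overlaps.

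*Cox6b2*, a subunit 6b isoform known from testis, was also scarce and fell. Its counts were 61, 42 and 36 under vehicle and 24, 23 and 27 under TGFβ, a log2 fold change of -0.78 ± 0.22 (SE; adjusted p = 0.0264), with groups that did not overlap. The call was lost (adjusted p in parentheses) without the first vehicle library (0.0792), the second vehicle library (0.0541), the first TGFβ library (0.0755) or the second TGFβ library (0.0815) and with DESeq2 (0.0680). The common isoform *Cox6b1* measured 106, 101 and 100.2 CPM under vehicle and 115, 109 and 114 CPM under TGFβ. Per length, *Cox6b2* was 0.932% ± 0.192 with vehicle and 0.497% ± 0.0253 with TGFβ (SD, n = 3) of the pair. *Cox7a2l*, a gene related to *Cox7a2*, measured 107, 108 and 112 CPM under vehicle and 88.1, 98.7 and 98.3 CPM under TGFβ. The log2 fold change was -0.20 ± 0.05 (SE; adjusted p = 0.0195). The call was lost (adjusted p in parentheses) without the second vehicle library (0.0520) or the third vehicle library (0.0585). Its relative *Cox7a2* went up, so that per length *Cox7a2l* was 58.0% ± 1.02 with vehicle and 49.6% ± 1.50 with TGFβ (SD, n = 3) of the pair, and the libraries of the groups did not overlap. Of the *Cox7a2l* windows 13.4% also occur in other transcripts.

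The muscle isoforms were scarce and not called. *Cox6a2*, the heart and skeletal muscle isoform of subunit 6a, measured 1.57, 1.31 and 1.94 CPM under vehicle and 1.75, 2.33 and 2.53 CPM under TGFβ (log2 fold change 0.45 ± 0.21, SE, adjusted p = 0.124), beside 106, 100.4 and 97.5 CPM under vehicle and 119, 118 and 122 CPM under TGFβ for the common *Cox6a1*. The groups of *Cox6a2* overlapped. *Cox7a1*, the muscle isoform of subunit 7a, had counts of 7, 5 and 5 under vehicle and 9, 10 and 4 under TGFβ and stayed below the filter. *Cox8a*, the common subunit 8, measured 86.8, 76.9 and 80.2 CPM under vehicle and 84.8, 81.6 and 80.8 CPM under TGFβ, a log2 fold change of 0.02 ± 0.05 (SE) that turned sign under upper quartile scaling, while the muscle isoform *Cox8b* had 2 reads over the 6 libraries. The testis isoforms *Cox8c* and *Cox7b2* had 1 read each.

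In complex V, 7 of 17 nuclear members tested rose and none fell (0 lower at an unadjusted p under 0.05 and with DESeq2 or limma-voom), with a median log2 fold change of 0.105. That is 41.2% changed, near the 40.7% of all genes tested, of which 20.5% were higher and 20.1% lower. *Atp5g1* (ENSMUSG00000006057; chromosome 11, 96068852 to 96075670, minus strand, GRCm38) is 1 of 3 genes for subunit c, whose ring turns in the membrane. The 3 genes differ in their import sequences and give the same mature protein. *Atp5g1* measured 32.3, 30.5 and 29.7 CPM under vehicle and 45.8, 44.4 and 45.5 CPM under TGFβ, with means of 30.9 ± 1.36 CPM under vehicle and 45.2 ± 0.694 CPM under TGFβ (SD, n = 3). The groups stood far apart beside their spread, and the log2 fold change of 0.55 ± 0.05 (SE; adjusted p = 9.94e-05), or 1.47-fold, was the largest rise past the threshold of any member and held in all 14 settings (adjusted p 5.17e-12 to 0.00106). The sister genes did not pass. *Atp5g2* measured 36.3, 35.3 and 35.0 CPM under vehicle and 32.0, 34.3 and 34.0 CPM under TGFβ, with the TGFβ libraries all below the vehicle ones and a log2 fold change of -0.09 ± 0.05 (SE; adjusted p = 0.171). *Atp5g3* measured 136, 125 and 127 CPM under vehicle and 135, 133 and 145 CPM under TGFβ, with overlapping groups and a log2 fold change of 0.09 ± 0.05 (SE; adjusted p = 0.213). Per length, *Atp5g1* was 22.8% ± 0.440 with vehicle and 31.6% ± 1.10 with TGFβ (SD, n = 3) of *Atp5g1* and *Atp5g2* together, and 9.58% ± 0.216 with vehicle and 12.7% ± 0.448 with TGFβ (SD, n = 3) of *Atp5g1* and *Atp5g3* together. The exon length used for *Atp5g1* takes in all annotated exons, which lowers its per-length level and with it these shares.

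*Atp5b* (ENSMUSG00000025393; chromosome 10, 128083273 to 128090391, plus strand, GRCm38) encodes the catalytic β subunit of the F1 head and was the most abundant nuclear member by reads and per length. *Atp5b* measured 730.4, 691 and 657 CPM under vehicle and 871, 881 and 853 CPM under TGFβ, with means of 693 ± 36.7 CPM under vehicle and 868 ± 14.2 CPM under TGFβ (SD, n = 3). No library overlapped, and the log2 fold change was 0.33 ± 0.05 (SE; adjusted p = 0.00200). Its partner in the head, the α subunit *Atp5a1*, measured 474, 459 and 465 CPM under vehicle and 488, 506 and 493 CPM under TGFβ, a log2 fold change of 0.09 ± 0.04 (SE; adjusted p = 0.121), with groups that did not overlap and a call in 1 of 14 settings. *Atp5mpl*, a small proteolipid of the membrane part, measured 36.3, 34.5 and 33.3 CPM under vehicle and 42.2, 41.1 and 43.0 CPM under TGFβ, a log2 fold change of 0.28 ± 0.05 (SE; adjusted p = 0.00271).

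The other members of complex V that rose belong to the stalk and the membrane part. They were *Atp5j* (coupling factor 6, 0.24), *Atp5k* (subunit e, 0.21), *Atp5j2* (subunit f, 0.21) and *Atp5f1* (subunit b, 0.16). The call of *Atp5f1* was kept in 9 of 14 settings. *Usmg5*, another small membrane subunit that falls outside the naming rule, measured 36.0, 34.1 and 34.1 CPM under vehicle and 49.1, 47.7 and 50.1 CPM under TGFβ, a log2 fold change of 0.50 ± 0.04 (SE; adjusted p = 1.18e-04). *Atp5j* overlaps *Gabpa* on the opposite strand over 12.7% of its exonic length, and *Gabpa* stood at -0.05 (adjusted p = 0.429). *Atp5c1* (0.04), *Atp5d* (0.11), *Atp5e* (0.06), *Atp5o* (0.05) and *Atp5h* (0.07) did not pass, nor did *Atp5l* (0.12) and *Atp5s* (-0.11), a member by its symbol.

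Since many nuclear members moved the same way, their promoters were searched for the sites of factors known to act on chain genes. RefSeq windows on GRCm38.p6, from 250 bases before to 50 after the annotated start, were at hand for 63 of the 79 protein-coding nuclear members, among them 26 of the 32 that rose. The letters CGCANGCG (core of the site of nuclear respiratory factor 1), read on both strands, occurred in 33.3% of the member windows, 34.6% of the windows of members that rose, 17.3% of the windows of all genes tested and 8.42% of all windows. CCGGAAG (ETS factors, to which GABP belongs) occurred in 20.6% of the member windows, 26.9% of the windows of members that rose, 17.8% of the windows of all genes tested and 9.12% of all windows. AAGATGGC (YY1) occurred in 12.7% of the member windows, 15.4% of the windows of members that rose, 4.55% of the windows of all genes tested and 2.88% of all windows. GGGCGG (SP1) occurred in 38.1% of the member windows, 34.6% of the windows of members that rose, 64.5% of the windows of all genes tested and 35.9% of all windows. The share for nuclear respiratory factor 1 was thus about as high in members that rose as over the member windows. For ETS factors and YY1 it was higher and for SP1 lower. In the order given, these shares of members that rose rest on 9, 7, 4 and 9 of 26 windows. The 26 windows are part of the 63, and no difference was tested. A match describes letters and shows no binding.

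Windows of 3 members are shown, with matches in capitals: *Cox6a1*, which rose and held 5 matches, *Atp5g1*, with the largest rise past the threshold and no match, and *Cox7a2l*, which fell and held only GGGCGG. Capitals that read CCGCCC or CTTCCGG are matches on the other strand.
Cox6a1 (chr5:115348909-115349208, minus strand): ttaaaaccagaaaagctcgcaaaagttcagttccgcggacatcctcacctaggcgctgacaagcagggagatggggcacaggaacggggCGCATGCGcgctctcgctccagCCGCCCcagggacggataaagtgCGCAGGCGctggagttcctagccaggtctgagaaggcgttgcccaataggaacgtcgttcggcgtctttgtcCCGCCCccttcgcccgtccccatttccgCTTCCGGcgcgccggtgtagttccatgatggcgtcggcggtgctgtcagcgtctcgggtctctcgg
Atp5g1 (chr11:96075582-96075881, minus strand): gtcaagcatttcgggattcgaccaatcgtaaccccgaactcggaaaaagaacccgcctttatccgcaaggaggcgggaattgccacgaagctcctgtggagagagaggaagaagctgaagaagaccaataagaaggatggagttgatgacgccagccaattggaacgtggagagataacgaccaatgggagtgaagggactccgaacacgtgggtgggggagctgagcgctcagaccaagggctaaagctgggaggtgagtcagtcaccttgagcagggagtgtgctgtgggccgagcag
Cox7a2l (chr17:83514284-83514583, minus strand): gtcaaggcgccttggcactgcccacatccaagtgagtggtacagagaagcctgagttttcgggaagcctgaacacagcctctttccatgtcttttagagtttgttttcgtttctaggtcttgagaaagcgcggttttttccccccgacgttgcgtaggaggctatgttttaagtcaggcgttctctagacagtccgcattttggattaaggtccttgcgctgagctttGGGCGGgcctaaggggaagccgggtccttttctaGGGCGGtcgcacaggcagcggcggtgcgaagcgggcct

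Complex II, which feeds electrons from succinate and has no mitochondrial gene, is not covered by the naming rule. Of its 4 subunits only *Sdhb*, the iron-sulphur subunit, passed, with 55.4, 56.7 and 54.4 CPM under vehicle and 61.6, 66.4 and 64.0 CPM under TGFβ and a log2 fold change of 0.21 ± 0.04 (SE; adjusted p = 0.00619). *Sdha*, *Sdhc* and *Sdhd* stood at 0.02, -0.06 and 0.07. Among assembly factors, 3 of 14 for complex I rose (*Ndufaf4*, 0.40; *Timmdc1*, 0.30; *Ndufaf7*, 0.24) and 1 fell (*Tmem126b*, -0.31). The call of *Ndufaf7* was lost with DESeq2. For complex III, *Uqcc2* rose (0.19) and *Bcs1l*, which inserts the Rieske protein, fell (-0.27; call lost with DESeq2), of 6. For complex IV, 3 of the 19 in the table rose, namely *Cox18* (0.44), *Cox11* (0.27) and *Cox20* (0.26), and none fell. DESeq2 called *Cox18* alone of these. For complex V, *Tmem70* rose (0.48), of 3. These shares of genes that rose are read beside the 20.5% of all genes tested, which those of complexes I, III and IV lay near or below.

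All protein genes of mitochondrial DNA are members, and since most are cut from 1 precursor their values are not independent. The genes with many reads showed no called change. *mt-Co1*, subunit 1 of complex IV with its haem and copper sites, measured 2519, 2423 and 2599 CPM under vehicle and 2281, 2229 and 2345 CPM under TGFβ. Each TGFβ library was below each vehicle library, and the log2 fold change of -0.14 ± 0.05 (SE; adjusted p = 0.0695) missed the threshold. It passed with DESeq2 and with upper quartile scaling (adjusted p 0.0263 to 0.204 over 16 settings). *mt-Cytb*, cytochrome b of complex III, measured 1336, 1229 and 1352 CPM under vehicle and 1282, 1214 and 1297 CPM under TGFβ, with overlapping groups and a log2 fold change of -0.05 ± 0.06 (SE; adjusted p = 0.548).

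The complex I genes overlapped between groups as well. *mt-Nd1* measured 883, 833 and 955 CPM under vehicle and 879.8, 867 and 979 CPM under TGFβ (log2 fold change 0.03 ± 0.07, SE, adjusted p = 0.772), and *mt-Nd2* 434, 399.6 and 471 CPM under vehicle and 419, 404 and 457 CPM under TGFβ (log2 fold change -0.03 ± 0.07, SE, adjusted p = 0.800). *mt-Nd4* measured 477, 418 and 485 CPM under vehicle and 415, 365 and 463 CPM under TGFβ (log2 fold change -0.15 ± 0.09, SE, adjusted p = 0.238) and *mt-Nd5* 877, 839 and 938 CPM under vehicle and 843, 773 and 808 CPM under TGFβ (log2 fold change -0.13 ± 0.06, SE, adjusted p = 0.114). The sign of *mt-Nd1* and of *mt-Nd2* turned when single libraries were left out. *mt-Nd6*, the member transcribed from the other strand, had far fewer reads in these poly(A)-selected libraries. It measured 10.1, 9.34 and 8.58 CPM under vehicle and 10.0, 10.7 and 10.0 CPM under TGFβ. The log2 fold change was 0.14 ± 0.08 (SE; adjusted p = 0.228). Whether poly(A) selection lowered its reads was not tested. *mt-Nd6* overlaps *mt-Nd5* by 14 bases on the opposite strand. Over *mt-Co1*, *mt-Cytb* and these complex I genes, vehicle levels per length ran from 72.8 for *mt-Nd6* to 6591 for *mt-Co1*. The highest nuclear member, *Atp5b*, stood at 663, close to 653 for *Cox4i1*.

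The other mitochondrial genes had few or no reads although they lie between abundant ones. The counts of *mt-Co2* were 63, 62 and 62 under vehicle and 55, 28 and 58 under TGFβ, those of *mt-Co3* 21, 19 and 14 under vehicle and 19, 19 and 34 under TGFβ and those of *mt-Atp6* 21, 23 and 16 under vehicle and 21, 18 and 21 under TGFβ. These genes encode the copper-site subunit and subunit 3 of complex IV and the channel subunit of complex V. *mt-Nd3* had 6, 6 and 2 under vehicle and 3, 4 and 1 under TGFβ, *mt-Nd4l* 0, 2 and 1 under vehicle and 2, 0 and 2 under TGFβ and *mt-Atp8* 2, 1 and 0 under vehicle and 0, 0 and 0 under TGFβ. The last 3 stayed below the filter. Each of these genes except *mt-Atp8* has a nearly identical copy among the unprocessed pseudogenes on chromosome 1, which derive from mitochondrial DNA inserted into the nuclear genome. The share of 75-base windows, the read length, that also occur in the transcript of the copy was 99.9% for *mt-Co3*, 99.5% for *mt-Co2*, 99.5% for *mt-Atp6*, 97.8% for *mt-Nd3* and 98.7% for *mt-Nd4l*. It was 0 for *mt-Nd1*, *mt-Cytb* and *mt-Nd6*. No annotated transcript shares windows with *mt-Atp8*. Sequence outside annotated transcripts was not searched.

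An example is bases 305 to 379 of the 684 bases of the *mt-Co2* transcript, found letter for letter in *Gm28661* on chromosome 1 and in *Gm13341* on chromosome 2, so that a read of this stretch fits more than 1 place.
mt-Co2: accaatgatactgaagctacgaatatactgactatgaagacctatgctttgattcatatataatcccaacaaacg

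The copies had far more reads than the genes. *Gm28437*, the copy of *mt-Co3*, had 6163, 5895 and 6228 reads with vehicle and 5154, 5886 and 6283 with TGFβ. *Gm10925*, that of *mt-Atp6*, had 7044, 6036 and 6591 reads with vehicle and 5222, 5482 and 6037 with TGFβ, and *Gm28661*, that of *mt-Co2*, had 4143, 3606 and 3884 reads with vehicle and 3295, 3240 and 3597 with TGFβ. Their log2 fold changes were 0.04, -0.11 and -0.07, and none passed the threshold. How reads that fit both places were assigned is not given in the sources used here, so the split between a gene and its copy is uncertain. *mt-Nd4* shares 61.5% of its windows with *Gm28439* and *mt-Co1* 27.5% with *Gm29216*. *Gm29216* fell by 0.21 on the log2 scale (adjusted p = 0.0308), with 4496, 3713 and 4230 reads with vehicle and 3086, 3206 and 3565 with TGFβ. Some windows of *mt-Co1*, 15.0%, occur in *Gm13340* on chromosome 2, which had 13618 reads over the 6 libraries, and with both copies 39.8% of its windows are shared.

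When each mitochondrial gene with a copy was added to the copy that shares the most windows with it before the test, none of 12 genes with enough reads passed. The 12 include *mt-Nd1*, *mt-Cytb* and *mt-Nd6*, which share no windows and had nothing added. The copies added to *mt-Nd2* and *mt-Nd5* share only 5.71% and 1.2% of windows. The summed log2 fold change was -0.14 for *mt-Co1* (adjusted p = 0.0669), -0.08 for *mt-Co2*, 0.05 for *mt-Co3*, -0.11 for *mt-Atp6*, 0.10 for *mt-Nd3*, -0.15 for *mt-Nd4* and -0.18 for *mt-Nd4l*. The values for *mt-Co3* and *mt-Atp6* alone, 0.53 ± 0.30 (SE; adjusted p = 0.191) and 0.12 ± 0.23 (SE; adjusted p = 0.729), rested on 14 to 34 reads a library, and that of *mt-Atp6* turned sign on adding the copy. That of *mt-Co2* alone was -0.28 ± 0.26 (SE; adjusted p = 0.418). With every copy that shares a window added, *Gm13340* and *Gm13341* among them, again none of the 12 passed, and *mt-Co1* stood at -0.14 (adjusted p = 0.0656).

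**Figure D4:**
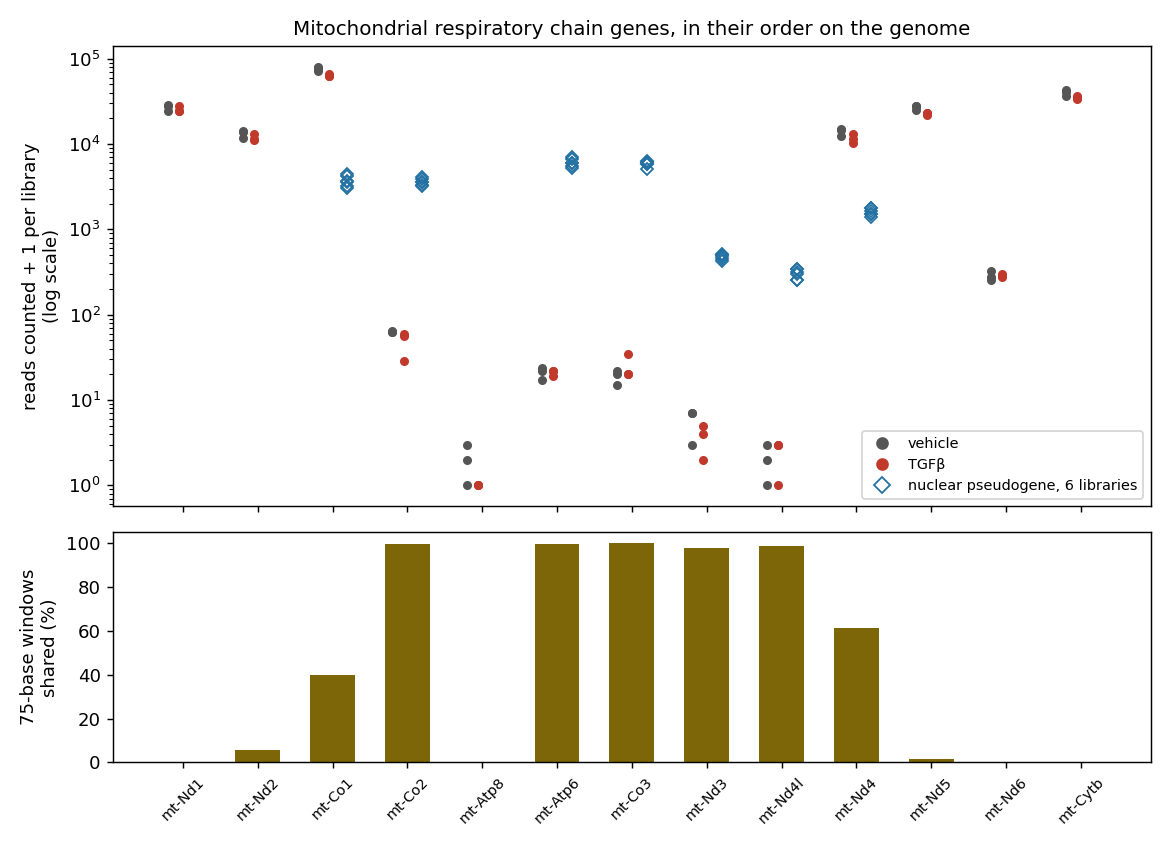
Upper panel, reads counted plus 1 per library (log scale) for the 13 mitochondrial members with vehicle (grey) and TGFβ (red), and for the nuclear pseudogene that shares a large part of the windows (blue diamonds, 6 libraries). Lower panel, percentage of the 75-base windows of each gene that are found in other transcripts as well. Genes with nearly all windows shared have at most 63 reads a library, and their copies lie far above them.

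Genes that act on mitochondrial DNA and RNA mostly did not pass. Of 10, 3 rose, namely the elongation factor *Tefm* (0.38) and the RNA-stabilising partners *Slirp* (0.24) and *Lrpprc* (0.13; call lost with DESeq2), and none fell. *Tfam*, which packages mitochondrial DNA and starts its transcription, measured 26.1, 26.3 and 25.1 CPM under vehicle and 25.8, 24.7 and 26.7 CPM under TGFβ, with overlapping groups and a log2 fold change of -0.00377 (adjusted p = 0.962). The polymerase *Polrmt* stood at 0.08. Of 10 markers of the organelle 7 rose and none fell, with the chaperones *Hspd1* (0.45) and *Hspa9* (0.28) and the import pore *Tomm40* (0.32) among them. These counts and the 3 of 10 above stand beside 20.5% of all genes tested that rose and 20.1% that fell. Citrate synthase *Cs* (0.10) and the channels *Vdac1* (0.00384) and *Vdac2* (0.06) did not pass.

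Of 7 nuclear regulators of chain genes none rose and 2 fell, both coactivators at the edge of detection. Among all genes tested 20.5% rose and 20.1% fell. *Ppargc1a* (PGC-1α) had counts of 16, 13 and 23 under vehicle and 0, 4 and 2 under TGFβ, a log2 fold change of -2.92 ± 0.60 (SE; adjusted p = 0.00653), called in all 13 alternative settings that gave a value. *Ppargc1b* had 24, 16 and 22 under vehicle and 7, 10 and 13 under TGFβ, a log2 fold change of -0.91 ± 0.29 (SE; adjusted p = 0.0369). The call of *Ppargc1b* was lost (adjusted p in parentheses) without the first vehicle library (0.104), the third vehicle library (0.0960), the first TGFβ library (0.119) or the second TGFβ library (0.0964) and with DESeq2 (0.162) and with no filter (0.0609). Neither gene overlapped between groups. The third coactivator, *Pprc1*, measured 52.6, 58.2 and 62.4 CPM under vehicle and 62.4, 58.3 and 60.5 CPM under TGFβ, with overlapping groups. *Nrf1* (-0.00331), *Gabpa* (-0.05), *Esrra* (0.15) and *Yy1* (-0.10) did not pass.

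Besides 3 mitochondrial genes, 12 members stayed below the filter on low counts. They were the muscle and testis isoforms *Cox7a1*, *Cox7b2*, *Cox8b* and *Cox8c* and the 8 pseudogenes (*Cox6c2*, *Uqcrh-ps1*, *Uqcrh-ps2*, *Atp5c1-ps*, *Atp5k-ps2*, *Atp5l-ps1*, *Atp5l-ps2* and *Atp5l2-ps*), of which none had more than 3 reads in a library. Among nuclear members tested, 16 share 10% or more of their windows with other transcripts. Without them 26 rose and 3 fell of 59. Among the genes described, *Ndufb2* overlaps *Braf* on the opposite strand over 2.59% of its exonic length, *Cox4i1* overlaps *Emc8* over 9.94% and *Atp5f1* overlaps *Wdr77* over 8.21%. Whether counting used strand is not given in the sources used here, so reads in these stretches are uncertain. Each single-gene exact permutation test of 3 libraries against 3 (two-sided) reaches at best p = 0.1, the value of every member named here as not overlapping.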

How the data were processed

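RNA-seq was performed on 6 libraries, 3 of vehicle and 3 of TGFβ. Per the study's methods the authors made stranded poly(A)-selected libraries, sequenced single-end reads and ran DESeq2, with mm10 named in the submitters' processing notes. The aligner, the counting tool and its treatment of strand and of reads that fit several places are not given in the sources used here. The deposited table holds whole-number counts of reads per gene without normalization. Its further columns, the authors' mean, fold change and p-values, were not used. Columns name the group but no replicate, so libraries are given in column order.

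Counts were scaled by TMM, filtered with filterByExpr and fitted in edgeR 4.0.16 (R 4.3.3), and the quasi-likelihood test was run for TGFβ against vehicle over the whole table, with Benjamini-Hochberg adjustment over 14334 genes and a threshold of 0.05. The standard error is the log2 fold change over the square root of F. The biological coefficient of variation was 7.97%. For nuclear members the median coefficient of variation that counting alone gives was 2.62% with vehicle and 2.71% with TGFβ, so that counting error makes up much of their spread. For the mitochondrial members tested it was 0.857% and 0.923%, far below their measured 7.41% and 6.58%. P-values measure the spread between these libraries only. Gene positions, exon lengths and shared windows come from GENCODE M21 (GRCm38), whose identifiers matched 25086 genes. Windows were compared with transcripts read on both strands, so that shared windows include overlaps with antisense genes. The steps were run on simulated counts with changes larger than those of most members, and that outcome is not given here.

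The members, gene lists, motifs and tests were chosen with earlier results of these data known. Named with values per library are all mitochondrial members, the 3 largest called rises and falls of each nuclear complex, isoform families, core subunits and pathway list genes called with a log2 change of 0.58 or more. *Ndufa4*, *Usmg5*, *Sdhb*, *Tfam*, *Pprc1* and the markers beside *Cox4i2* were added after their values were seen. The values of 1 member of complex I and of 1 TGFβ target are not reported here. Alternatives were DESeq2 1.42.0, limma-voom (limma 3.58.1), DESeq2 size factors or upper quartile scaling in edgeR, no filter, a filter of 1 CPM in 3 libraries, mitochondrial genes left out of the scaling, a length and GC trend removed, each library left out, a threshold of 0.01 and, chosen after seeing the data, the closest or every nuclear copy added and members with shared windows left out.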

Additional observations from a re-analysis of the deposited data

How the results depend on the processing

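No paired analysis was possible because the columns carry the group of a library but no replicate number. The count of members that changed (36) became 23 with DESeq2, 14 at a threshold of 0.01 and 18 to 32 with single libraries left out. The 32 that rose became 20 with DESeq2 and 13 at 0.01, with 17 to 29 on leaving out libraries. Of the 4 that fell, 1 was left at 0.01 and 1 to 4 on leaving out libraries. Among nuclear members alone, 22 changed with DESeq2 (20 higher, 2 lower) and 14 at 0.01 (13 higher, 1 lower), with the same ranges of 18 to 32 changed, 17 to 29 higher and 1 to 4 lower on leaving out libraries. Mitochondrial members changed were 1 with upper quartile scaling and 1 with DESeq2, *mt-Co1* in both. With upper quartile scaling 22 nuclear members were higher, and 59 of 75 had a log2 fold change above 0 in place of 66. A length and GC trend removed gave 37 higher and 3 lower. In that setting the median over all genes tested also moved up, from -0.00129 to 0.0447. The nuclear median moved from 0.122 to 0.147. Other counts stayed within 1.5 times.

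Log2 fold changes near 0 turned sign. Upper quartile scaling gave -0.00725 for *Cox4i1*, -0.00209 for *Cox8a* and -0.0114 for *Ndufs7*, and *mt-Atp6* was -0.108 with its nuclear copy added and -0.108 with every copy added. On leaving out libraries the ranges were -0.0351 to 0.0825 for *mt-Nd1*, -0.0858 to 0.0348 for *mt-Nd2*, -0.000584 to 0.255 for *mt-Atp6*, -0.00105 to 0.0367 for *Cox4i1*, -0.0189 to 0.0682 for *Cox8a*, -0.0344 to 0.0432 for *Ndufs7*. Over the 43 genes named by the rule given in the methods and their settings, 559 values kept direction and side of the threshold, 39 lost it, 5 gained it and 15 turned sign. Other genes named near 0, such as *Cox6c*, *Tfam* and *Vdac1*, were not followed across settings. The causes were not tested. In the fits that leave out a library, having fewer libraries cannot be told apart from the effect of the particular library dropped.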
